A study of Sus scrofa with 15 samples.

Results

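Peroxisome biogenesis factors and peroxisomal enzymes were followed in the liver of piglets after a lipopolysaccharide (LPS) challenge. A list of 39 genes was taken, and a row of the deposited gene count table was used when its pig Ensembl identifier carried the symbol of a listed gene. Of the 39 genes, 33 had a row among the 31908 genes of the table. PEX10, PEX13, SCP2, AMACR, PIPOX and PXMP4 were not matched by symbol and were not analysed here. ABCD2, a peroxisomal transporter of fatty acyl-CoA, had 0 counts in all 6 libraries, which allows a level of up to 0.204 CPM in the deepest and 0.652 CPM in the shallowest library (CPM are counts scaled to a common library size, and 3 counts per library were taken as the limit). The remaining 32 genes passed the filter on low counts together with 12774 genes in all.

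The animals were male Duroc x Large White x Landrace piglets in the growing stage. The LPS group was injected intraperitoneally with 80 μg/kg LPS, a cell wall component of Gram-negative bacteria, the CON group received sterile saline, and livers were taken 4 h later. The values are read counts of polyadenylated liver RNA from 3 libraries per group, the input fractions kept before immunoprecipitation with an antibody against methylated adenosine. Nothing in the labels ties a library to a single animal, so the p-values measure the spread between these libraries.

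Peroxisomes are single-membrane organelles that are abundant in hepatocytes. They shorten very-long-chain and branched fatty acids and bile acid precursors by oxidation, form the first intermediates of ether lipids, and metabolise glyoxylate and D-amino acids, and several of their oxidases release hydrogen peroxide that catalase breaks down. Their matrix enzymes are made in the cytosol and carried in by receptors of the PEX family, while other PEX proteins insert the membrane proteins and divide the organelle. In the liver, many of the genes of peroxisomal fatty acid oxidation are targets of the nuclear receptor PPAR-alpha.

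Total counts lay between 4348478 and 19967417 per library, and mitochondrial genes held 1.17% to 3.22% of them. The LPS libraries differed among themselves. Across genes, which are no replicates of each other, log2 CPM correlated at 0.907 between LPS replicates 1 and 2, at 0.903 between replicates 1 and 3 and at 0.852 between replicates 2 and 3. With the CON libraries, the correlation was 0.923 to 0.945 for LPS replicate 2, 0.853 to 0.899 for LPS replicate 1 and 0.837 to 0.874 for LPS replicate 3. Calls changed when LPS replicate 2 or 3 was left out, and such results are given with and without the library.

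Most peroxisomal genes had lower levels in the LPS group, and the lowest log2 fold changes were mostly those of enzymes and transporters. The log2 fold change of LPS against CON was negative for 25 of the 32 tested genes and positive for 7, with a median of -0.42 beside a median of 0.01 over all tested genes. Catalase (CAT), the acyl-CoA oxidase ACOX2, the biogenesis factor PEX3, the transporter ABCD3 and the oxidase HAO1 had the 5 lowest values, and alanine-glyoxylate aminotransferase (AGXT) stood alone at the other end. None of these differences passed the adjusted threshold in the edgeR fit with all 6 libraries and the filter on low counts. A gene was called at a Benjamini-Hochberg adjusted p below 0.05 over all tested genes and a fold change above 1.5 in edgeR's quasi-likelihood test, which called 0 of the 32 lower and 0 higher, where 0% of all tested genes were called lower and 0.0548% higher. Taken without adjustment, a p below 0.05 in this test was reached by 8 lower genes (25%), beside 6.33% of all tested genes, and 1 higher gene (3.12%), beside 6.18%. DESeq2, run as an alternative, called CAT, ACOX2 and PEX3 lower and AGXT higher at the same thresholds, beside 0.951% of genes called lower and 1.85% called higher by that tool. Limma-voom called 0 and 0, beside 0.0157% and 0.0313%. In liver tissue, fewer cells of a type and less RNA per cell cannot be told apart.

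The groups did not overlap for 11 of the 32 genes. All 3 LPS values lay below all 3 CON values for 10 genes (31.2%), beside 9.8% of all tested genes, and above them for 1 gene, beside 6.52%. By class, 18 of 21 enzymes, transporters and membrane proteins had a negative log2 fold change, with a median of -0.65 and 8 genes without overlap below CON. The 11 tested PEX genes had 7 negative and 4 positive values, a median of -0.19 and 2 genes without overlap. The difference between these classes was not tested.

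**Figure D1:**
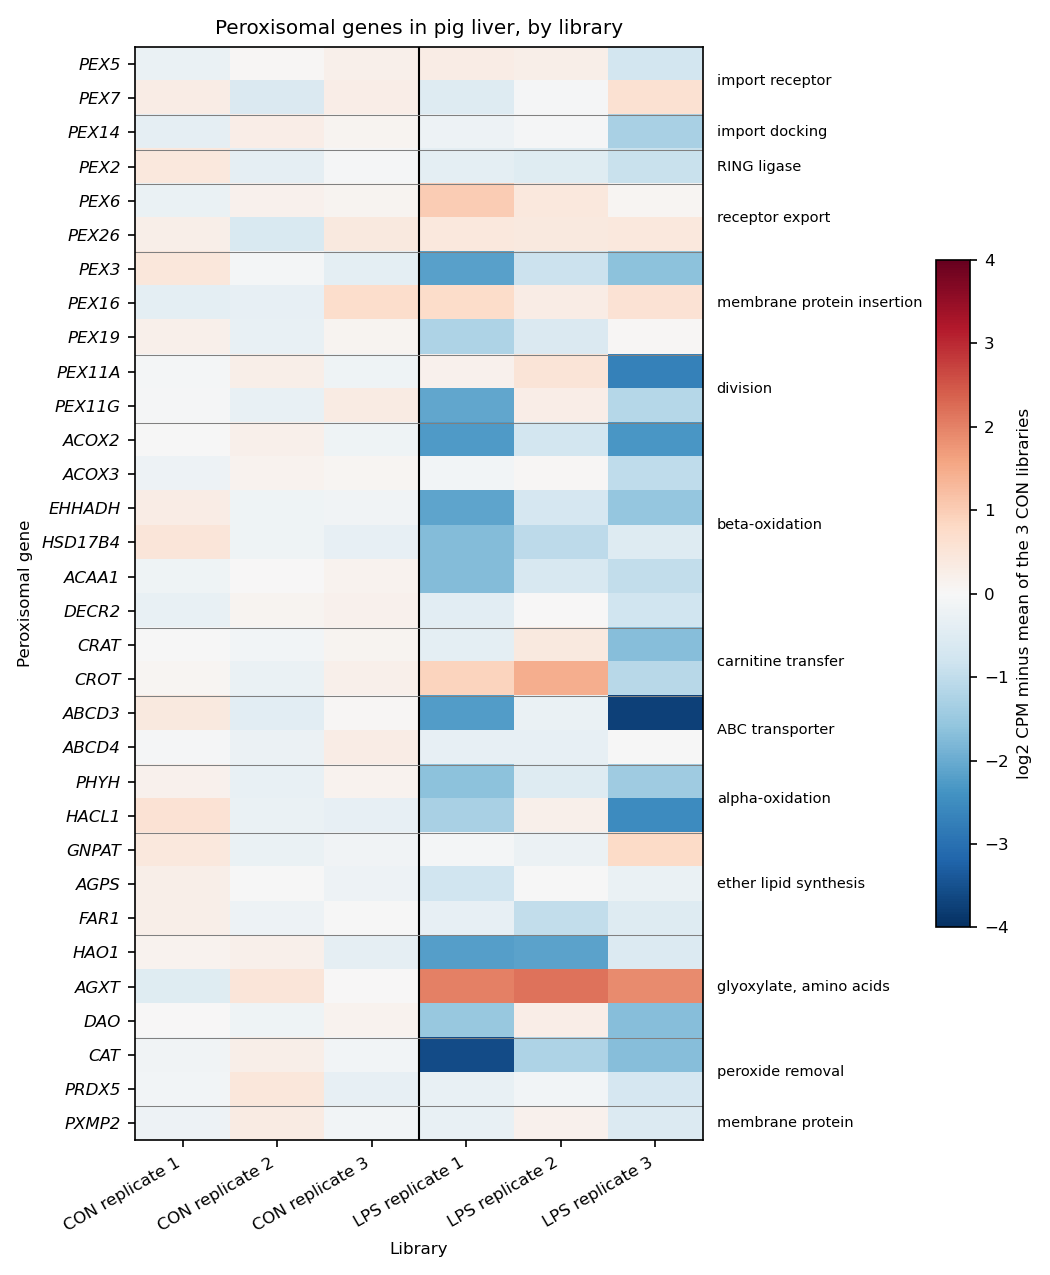
Heat map of log2 CPM minus the mean of the 3 CON libraries for each of the 32 tested peroxisomal genes (rows, ordered by role) in the 3 CON and 3 LPS libraries (columns), with blue below and red above the CON mean. Blue prevails in LPS replicates 1 and 3, whose median over the genes is -0.41 and -0.83, while the LPS replicate 2 column is paler with a median of -0.05, and AGXT is red in all 3 LPS libraries.

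All 6 tested enzymes of peroxisomal beta-oxidation had a negative log2 fold change, with a median of -1.06, and 4 of them had an unadjusted p below 0.05. The branched-chain acyl-CoA oxidase ACOX2 (ENSSSCG00000011477, chromosome 13 from 40223008 to 40255967) takes the first oxidation step of bile acid precursors and branched fatty acids. Coordinates are those of the deposited table, whose pig build no source used here names. ACOX2 was measured at 194, 227 and 175 CPM in CON replicates 1, 2 and 3 and at 41.2, 118 and 39.5 CPM in LPS replicates 1, 2 and 3. The groups were separate, with LPS replicate 2 nearest to CON, and the log2 fold change was -1.58 (SE 0.46, edgeR adjusted p = 0.221).

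EHHADH (ENSSSCG00000040296, chromosome 13 from 123102666 to 123176137), the L-bifunctional enzyme that hydrates the product of the oxidase and dehydrogenates it again, had 198, 144 and 146 CPM in the CON libraries and 37.1, 102 and 55.5 CPM in the LPS libraries. All LPS values were below CON, again with LPS replicate 2 highest, and the log2 fold change was -1.33 (SE 0.41, edgeR adjusted p = 0.244). HSD17B4 (ENSSSCG00000028431, chromosome 2 from 123313448 to 123402731), the D-bifunctional enzyme that carries out the same steps for branched substrates and bile acid precursors, had 208, 132 and 117 CPM in the CON libraries and 43.8, 72.0 and 104 CPM in the LPS libraries. Here the highest LPS value came from replicate 3, close to the lowest CON value, and the log2 fold change was -1.06 (SE 0.40, edgeR adjusted p = 0.329).

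ACAA1 (ENSSSCG00000011250, chromosome 13 from 22964875 to 23020143) is the thiolase that cleaves the shortened chain in the last step. Its level was 326, 368 and 408 CPM in the CON group and 110, 232 and 185 CPM in the LPS group, without overlap, and the log2 fold change was -1.06 (SE 0.35, edgeR adjusted p = 0.268). Of the exon bases of ACAA1, 57.6% also belong to MYD88 on the opposite strand, an adaptor of Toll-like receptors. The kit was strand-specific, but no source used here gives the strand setting of the counting, so reads of the pair may not be separated and the ACAA1 value is uncertain. The other oxidase, ACOX3, and the auxiliary reductase DECR2, which handles double bonds at even positions, overlapped between the groups, with log2 fold changes of -0.30 and -0.38.

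Transport and carnitine transfer showed wider spread. ABCD3, the half-transporter that brings branched-chain acyl-CoA and bile acid precursors into the peroxisome, had 198, 112 and 156 CPM in the CON libraries and 31.8, 125 and 11.1 CPM in the LPS libraries. LPS replicates 1 and 3 lay far below CON while LPS replicate 2 lay within it, and the log2 fold change was -1.47 (SE 0.73, edgeR adjusted p = 0.456). ABCD4, a family member known for cobalamin export from lysosomes, ranged from 26.4 to 38.7 CPM in CON and from 24.9 to 31.1 CPM in LPS, a log2 fold change of -0.23. The 2 carnitine acyltransferases, which hand shortened chains on for export, had log2 fold changes of opposite sign. CRAT, the enzyme for short chains, had -0.34, and CROT, the enzyme for medium chains, had 0.74. CROT was measured at 54.5, 79.8 and 13.4 CPM in the LPS libraries against 24.1 to 33.2 CPM in CON, so that its LPS values lay on both sides of the CON range.

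In alpha-oxidation, which removes 1 carbon from phytanic acid so that beta-oxidation can begin, PHYH and HACL1 act in turn. PHYH (ENSSSCG00000039244, chromosome 10 from 48404293 to 48423978), the phytanoyl-CoA hydroxylase, had 156, 110 and 150 CPM in CON and 44.0, 96.4 and 51.5 CPM in LPS. Its groups did not overlap, with a log2 fold change of -1.12 (SE 0.37, edgeR adjusted p = 0.272). The lyase HACL1 had 19.2, 10.5 and 10.1 CPM in CON and 5.01, 14.7 and 2.05 CPM in LPS. LPS replicate 2 again lay inside the CON range, and the log2 fold change was -0.89 (SE 0.64, edgeR adjusted p = 0.605).

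None of the 3 enzymes of ether lipid synthesis had an unadjusted p below 0.05. GNPAT, which adds the first acyl chain, had a log2 fold change of 0.21, and AGPS, which exchanges that chain for a fatty alcohol, had -0.33, both with overlapping groups. FAR1, the reductase that supplies the fatty alcohol, was the least abundant of the tested genes per length, with 3.66, 2.66 and 3.06 CPM in CON and 2.40, 1.47 and 2.12 CPM in LPS. Its groups did not overlap, but the gap was narrow, and the log2 fold change was -0.65 (SE 0.45, edgeR adjusted p = 0.589).

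In glyoxylate metabolism, the enzyme that makes glyoxylate and the one that removes it lay on opposite sides of CON. HAO1 (ENSSSCG00000027439, chromosome 17 from 16744440 to 16802442), the hydroxyacid oxidase that turns glycolate into glyoxylate and releases hydrogen peroxide, had 69.7, 71.6 and 49.3 CPM in the CON libraries and 13.5, 13.9 and 42.9 CPM in the LPS libraries. In this gene LPS replicate 3, not replicate 2, was nearest to CON, and the log2 fold change was -1.42 (SE 0.47, edgeR adjusted p = 0.268). AGXT (ENSSSCG00000016402, chromosome 15 from 139720612 to 139730736), which converts glyoxylate and alanine to glycine and pyruvate, had 192, 381 and 273 CPM in the CON libraries and 1098, 1211 and 997 CPM in the LPS libraries.

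The LPS values of AGXT were close together, at 1102 ± 107 CPM against 282 ± 94.8 CPM in CON (mean ± SD, n = 3 per group), and LPS replicate 2 was the highest of them. The log2 fold change of 1.97 (SE 0.35) corresponds to 3.91-fold, with an edgeR adjusted p of 0.0902. Of the 32 genes, AGXT had the smallest adjusted p. The ratio of AGXT to HAO1, both per length, was 5.74, 11.1 and 11.5 in the CON libraries and 169, 181 and 48.4 in the LPS libraries, a pair formed after the values were seen. The D-amino acid oxidase DAO had 36.0, 31.9 and 39.2 CPM in CON and 12.2, 42.5 and 10.9 CPM in LPS, with 2 libraries below CON and replicate 2 above it, and a log2 fold change of -0.71.

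Of the genes for peroxide removal, CAT (ENSSSCG00000013302, chromosome 2 from 26487653 to 26581452) encodes catalase, which splits hydrogen peroxide into water and oxygen. It was measured at 1266, 1623 and 1295 CPM in the CON libraries and at 117, 586 and 425 CPM in the LPS libraries. Every LPS library lay well below CON, LPS replicate 1 by far the most. The means were 1395 ± 198 CPM in CON and 376 ± 238 CPM in LPS (SD, n = 3 per group), and the log2 fold change was -1.89 (SE 0.53, edgeR adjusted p = 0.218), or 3.71-fold. PRDX5, a peroxiredoxin found in peroxisomes, mitochondria and cytosol, ranged from 91.4 to 155 CPM in CON and from 70.8 to 105 CPM in LPS, a log2 fold change of -0.39. Because 64.2% of its exon bases also belong to neighbouring genes, the value of PRDX5 is uncertain. PXMP2, which forms a channel in the peroxisomal membrane, had a log2 fold change of -0.22 with overlapping groups.

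**Figure D2:**
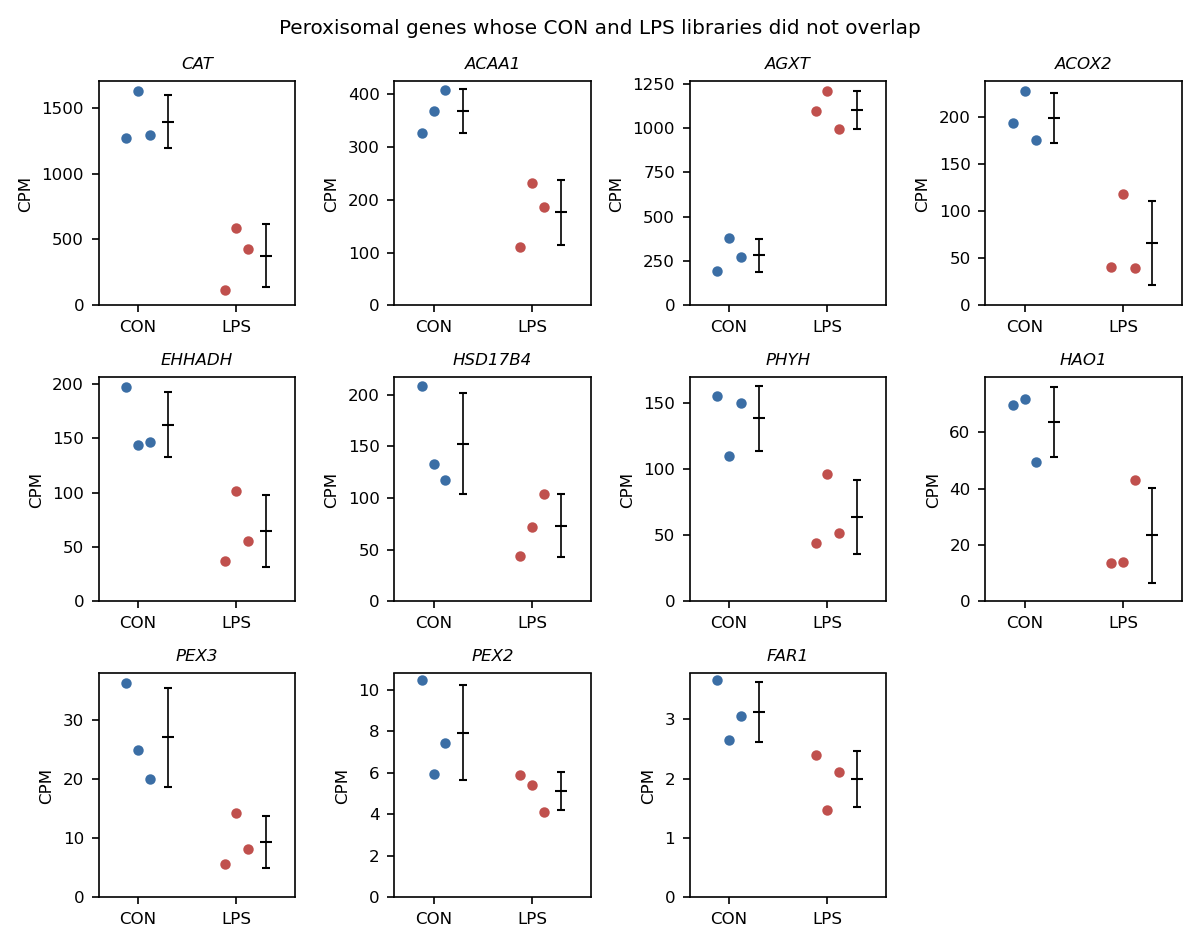
CPM of the 11 peroxisomal genes whose CON and LPS libraries did not overlap, 1 panel per gene with its own axis from 0, each dot a library and each bar the mean ± SD of 3 libraries. In 10 panels all LPS dots lie below the CON dots, from CAT (1395 against 376 CPM) down to FAR1 (3.13 against 2.00 CPM), and in the AGXT panel they lie above.

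Among the PEX genes, PEX3 differed most. PEX3 (ENSSSCG00000004134, chromosome 1 from 21750289 to 21802182) is the membrane anchor to which PEX19 delivers newly made peroxisomal membrane proteins. It had 36.3, 24.8 and 19.97 CPM in the CON libraries and 5.67, 14.2 and 8.19 CPM in the LPS libraries, without overlap. The log2 fold change was -1.53 (SE 0.42, edgeR adjusted p = 0.218). The partners of PEX3 in membrane protein insertion had smaller values. PEX19, the soluble carrier, had a log2 fold change of -0.50 with 13.1, 20.6 and 31.9 CPM in LPS against 25.0 to 35.4 CPM in CON, and PEX16, the receptor for PEX3 on the membrane, had 0.46.

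The import receptors had log2 fold changes near 0, and the other tested genes of matrix protein import had values of either sign. PEX5, the receptor for the carboxyl-terminal targeting signal carried by most matrix enzymes, had a log2 fold change of -0.02 (SE 0.35), and PEX7, the receptor for the amino-terminal signal, had 0.06 (SE 0.49). The signs of both reversed under other settings, PEX5 with RLE factors and PEX7 with scaling to library totals. PEX14, which docks the loaded receptors at the membrane, had -0.45. PEX2, a RING ubiquitin ligase that marks the receptor for return to the cytosol, had 10.5, 5.94 and 7.42 CPM in CON and 5.89, 5.40 and 4.10 CPM in LPS. The PEX2 groups were separate by a narrow margin, and its log2 fold change was -0.65 (SE 0.38, edgeR adjusted p = 0.520). PEX6 and its membrane anchor PEX26, which pull the marked receptor out, had 0.55 and 0.35.

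The PEX11 proteins elongate the organelle before division. PEX11A had 13.8, 17.0 and 12.8 CPM in CON and 16.1, 20.6 and 2.05 CPM in LPS. The log2 fold change of -0.19 (SE 0.66) rested on LPS replicate 3 and was 0.36 without that library. PEX11G had 11.4, 9.69 and 15.03 CPM in CON and 2.62, 14.2 and 5.19 CPM in LPS, a log2 fold change of -0.71 (SE 0.55) in which LPS replicate 2 lay within the CON range. ARHGEF18, on the opposite strand, shares 38.6% of the exon bases of PEX11G. In all, 14 of the 33 genes with a row share exon bases with another gene, 5 of them under 10% of their length, and 19 share none. PEX19 shares 27.9%, CROT 25.7%, PXMP2 24.4% and PEX16 18.8%, so their values are uncertain too. The gene that overlaps PEX19 lies on the same strand. CAT shares 11.4% and PEX3 10%, while ACOX2, EHHADH, HSD17B4, PHYH, HAO1 and AGXT share none.

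Levels were compared between genes only as CPM per kilobase of exon length. In CON livers CAT was highest at 299 ± 42.5 CPM per kilobase, followed by AGXT at 166 ± 55.7, ACAA1 at 86.8 ± 9.64, PHYH at 80.5 ± 14.3 and ACOX2 at 66.8 ± 8.81 (mean ± SD, n = 3). ACAA1 and PHYH did not differ beyond their spread, and neither did PHYH and ACOX2. In LPS livers AGXT was highest at 648 ± 62.9 CPM per kilobase, and CAT followed at 80.6 ± 51.1, a level whose spread covers ACAA1 at 41.5 ± 14.6. HAO1 held rank 13 of 32 in CON and rank 20 in LPS, and PEX3 rank 18 and rank 25. The PEX genes lay between 1.13 (PEX7) and 18.3 (PEX14) CPM per kilobase in CON, below the abundant enzymes.

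The sum over the 32 genes did not show these differences. Summed CPM per kilobase was 963, 1122 and 1012 in the CON libraries and 950, 1287 and 953 in the LPS libraries, so the sums overlapped. Without CAT and AGXT, a pair left out after the values were seen, the sum was 579, 550 and 574 in CON and 280, 450 and 275 in LPS, with no overlap and with LPS replicate 2 nearest to CON.

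**Figure D3:**
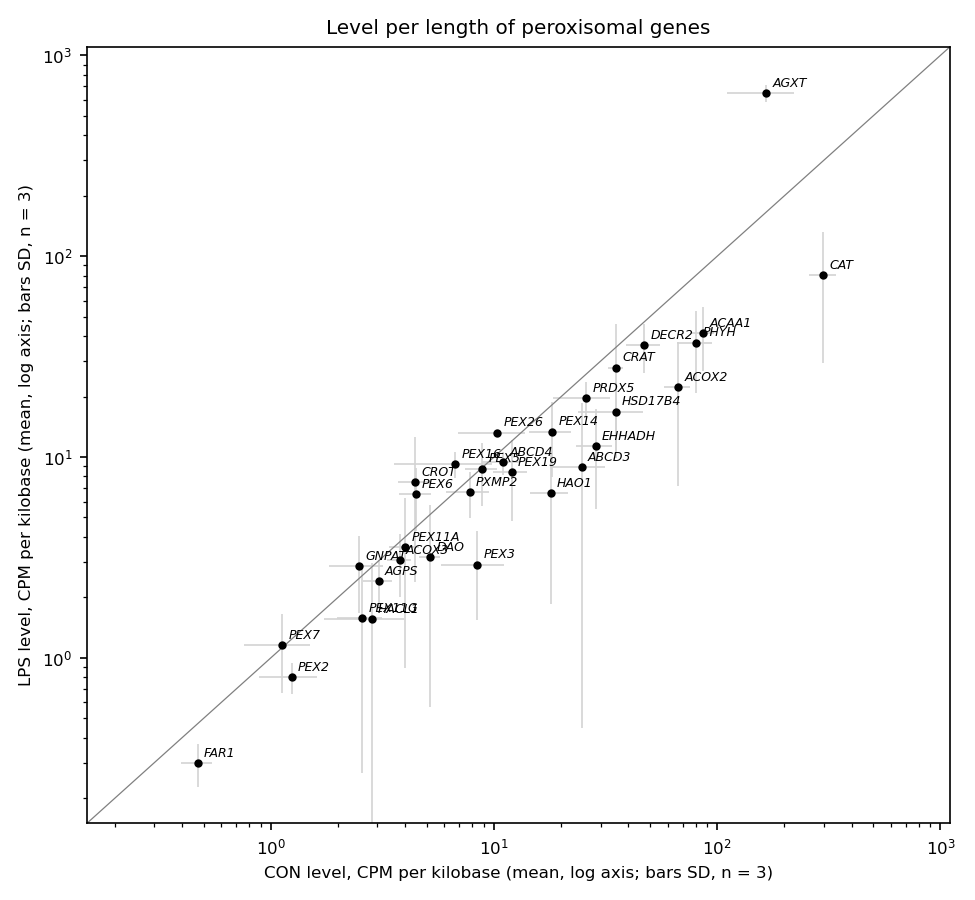
Mean level of each of the 32 tested peroxisomal genes in CPM per kilobase in the CON group (horizontal log axis) and the LPS group (vertical log axis), with bars of ± SD over 3 libraries and a diagonal of equal levels. AGXT lies above the diagonal at 166 against 648, CAT below it at 299 against 80.6, and PEX5 and PEX7 lie on it.

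Which genes passed the threshold depended on LPS replicate 2. Of the 25 genes with a negative log2 fold change, 18 had their highest LPS value in this library, 3 in replicate 1 and 4 in replicate 3. The same count over all tested genes is not given here. LPS replicate 2 also correlated most closely with the CON libraries over all tested genes. Whether the count of 18 of 25 is particular to the peroxisomal genes was not tested. Compared with the lowest CON value, the level was lower for 20, 12 and 24 of the 32 genes in LPS replicates 1, 2 and 3, and over all tested genes these shares were 37.1%, 26.5% and 37.2%. Without LPS replicate 2, edgeR called 8 of the 32 genes lower, beside 3.45% of 13632 genes, and 1 higher, beside 3.76%. The median log2 fold change of the 32 genes was then -0.65.

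The 8 genes called lower without LPS replicate 2 came from several routes. ACOX2 had a log2 fold change of -2.30 (edgeR adjusted p = 0.00521), ABCD3 -2.87 (0.00911), EHHADH -1.81 (0.0187) and PHYH -1.53 (0.0275), all enzymes or carriers of fatty acid oxidation. HACL1 had -1.99 (0.0476), DAO -1.63 (0.0207), CAT -2.36 (0.0269) and PEX3 -1.94 (0.0212). AGXT rose, with a log2 fold change of 1.896 (edgeR adjusted p = 0.0161). HAO1, ACAA1 and HSD17B4 did not pass, with edgeR adjusted p-values of 0.165, 0.0595 and 0.187.

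With LPS replicate 3 left out, HAO1 was called lower (log2 fold change -2.19, edgeR adjusted p = 0.0242) and AGXT higher (2.05, 0.0378), beside 0.151% and 0.31% of all genes in that fit. AGXT was called in both of these fits. No peroxisomal gene was called without any one of the other 4 libraries, beside 0% of all genes lower and 0% to 0.00733% higher. Without the filter on low counts, which left 23529 genes to test, ABCD3, ACOX2, CAT, EHHADH, HAO1 and PEX3 were called lower, beside 1.48% of these genes, and AGXT higher, beside 2.28%. DESeq2 without LPS replicate 2 called 10 of the 32 genes lower, the 8 above with ACAA1 and PEX11G, beside 5.3%, and AGXT higher, beside 5.57%. Over all settings tried, the log2 fold change of AGXT lay between 1.75 and 2.24, and that of CAT between -2.36 and -1.46.

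**Figure D4:**
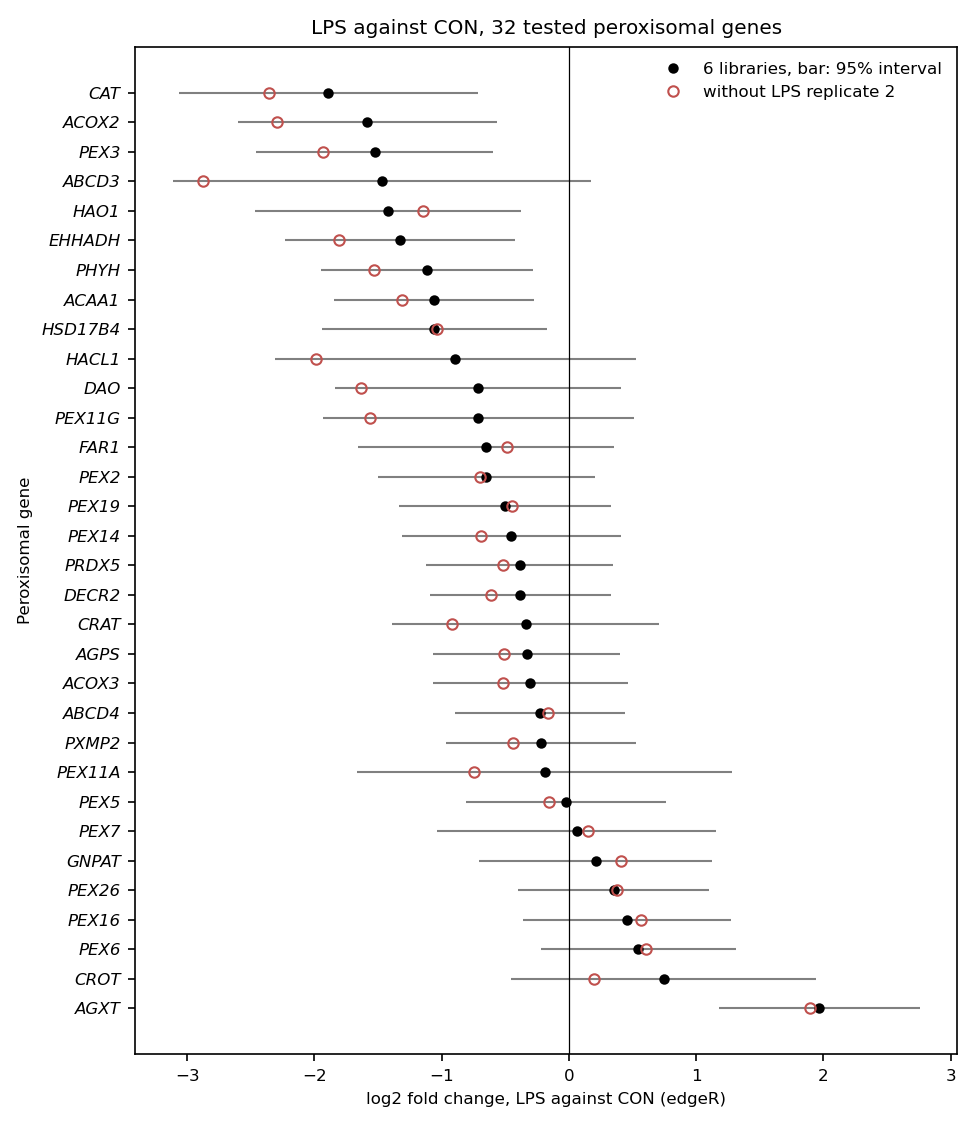
Log2 fold change of LPS against CON (edgeR) for the 32 tested peroxisomal genes, with filled dots and 95% intervals from all 6 libraries and open dots from the fit without LPS replicate 2. Without that library ABCD3 moves from -1.47 to -2.87 and HACL1 from -0.89 to -1.99, while HSD17B4, PEX2, PEX26 and AGXT hardly move.

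Other genes of the organelle, on a separate list of 43 genes of which 35 were tested, were distributed in a similar way. Of these, 27 had a negative and 8 a positive log2 fold change, with a median of -0.68. At an unadjusted p below 0.05 there were 10 lower (28.6%) and 2 higher genes (5.71%), beside 6.33% and 6.18% of all tested genes. With all 6 libraries and the filter on low counts, edgeR called 0 of these other genes in either direction. The lowest p belonged to mevalonate kinase (MVK), an enzyme of isoprenoid synthesis found in peroxisomes and cytosol, with 77.2, 99.0 and 142 CPM in CON and 7.41, 28.5 and 15.3 CPM in LPS, and with a log2 fold change of -2.63 (SE 0.49, edgeR adjusted p = 0.0949). TMEM135, linked to peroxisome and mitochondrial division, had -1.56 (adjusted p = 0.203), the glutathione transferase GSTK1 -1.23 (0.200), the epoxide hydrolase EPHX2 -1.25 (0.221) and the enoyl-CoA reductase PECR -0.995 (0.256), all in the same edgeR fit.

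On the other side of CON lay SLC25A17, a peroxisomal carrier of CoA and related cofactors, which had 17.4, 12.8 and 18.7 CPM in CON and 40.3, 21.1 and 43.7 CPM in LPS. Its log2 fold change of 1.10 had an edgeR adjusted p of 0.268, and that of 1.37 in the fit without LPS replicate 2 had 0.0333. Without that library 7 genes of this separate list were called lower and 1 higher, beside 3.45% and 3.76% of all genes in that fit.

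PPARA, which encodes PPAR-alpha, had 79.6, 67.0 and 75.8 CPM in CON and 32.3, 57.8 and 27.8 CPM in LPS. All LPS values were below CON, with a log2 fold change of -0.92 (SE 0.34, edgeR adjusted p = 0.329) that was -1.30 (edgeR adjusted p = 0.0403) without LPS replicate 2. The 8 tested genes of PPAR-alpha and its partner receptors and cofactors had a median of -0.01. Of 16 tested PPAR-alpha target genes outside the peroxisome, 13 had a negative log2 fold change and 3 a positive one, with a median of -0.68 and 4 genes (25%) lower at an unadjusted p below 0.05, beside 6.33% of all tested genes. Those were HADHA, a subunit of the mitochondrial trifunctional protein, with -1.05, the electron transfer flavoprotein dehydrogenase ETFDH with -1.19, the mitochondrial acyl-CoA dehydrogenase ACADL with -1.22 and the fasting hormone FGF21 with -1.40, and their edgeR adjusted p-values ran from 0.263 to 0.316. The 6 tested genes of ether lipid steps outside the peroxisome had a median of -0.05, and CHPT1, the cholinephosphotransferase, had -1.18 (edgeR adjusted p = 0.238).

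**Figure D5:**
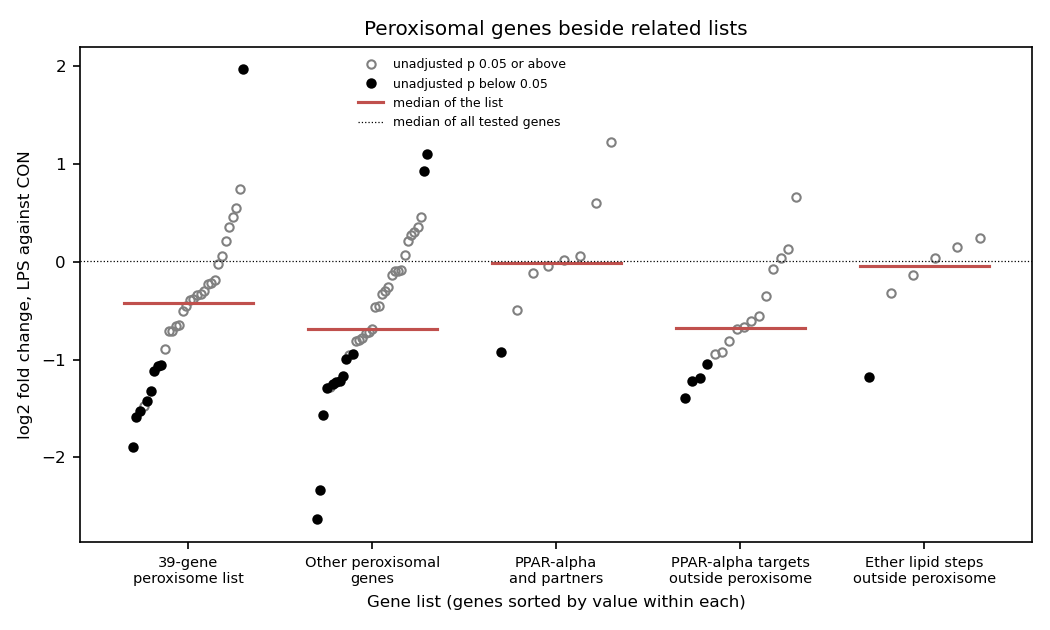
Log2 fold change of LPS against CON (edgeR, 6 libraries) for the tested genes of 5 lists, 1 dot per gene sorted by value, filled where the unadjusted p was below 0.05, with the median of each list as a bar and that of all tested genes as a dotted line. The medians are -0.42 for the 39-gene list, -0.68 for the other peroxisomal genes and -0.01 for PPAR-alpha and partners. They are -0.68 for PPAR-alpha targets and -0.05 for ether lipid steps, both outside the peroxisome.

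Markers of other liver cells were measured in the same libraries. All 12 hepatocyte markers were detected, with a summed level of 76330 to 99270 CPM in CON and of 64460 to 130600 CPM in LPS, so the summed levels overlapped, and SERPINA1 among these markers was low at 1.23 to 7.20 CPM. Of the 12, 7 had a negative and 5 a positive log2 fold change, with a median of -0.31. All LPS values lay below CON for 3 of them (25%, beside 9.8% of all tested genes), namely albumin (ALB, log2 fold change -0.76) and the asialoglycoprotein receptor subunits ASGR1 (-1.03, edgeR adjusted p = 0.257) and ASGR2 (-0.52). The sum includes FGB, a fibrinogen chain of the acute-phase response, whose mean was 9956 CPM in CON and 27150 CPM in LPS and whose LPS values all lay above CON. The 10 markers of Kupffer cells or macrophages all had a negative log2 fold change, with sums of 1962 to 3222 CPM in CON and 1364 to 2286 CPM in LPS. Of the 10 neutrophil markers 4 were tested and 3 lay above CON in every LPS library, beside 6.52% of all tested genes. The sums of the neutrophil markers were 13.6 to 23.2 CPM in CON and 166, 72.0 and 299 CPM in LPS replicates 1, 2 and 3. S100A8 rose among them (log2 fold change 5.34, edgeR adjusted p = 0.0371), while the tested marker ELANE had -0.66 with overlapping groups. LPS replicate 2 had the lowest neutrophil sum of the LPS libraries, and a link with the levels of the peroxisomal genes was not tested.

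Sums of the T or NK cell markers were 120 to 153 CPM in CON and 65.9 to 136 CPM in LPS, and those of B or plasma cells 26.0 to 113 and 20.9 to 42.0 CPM. Endothelial markers summed to 413 to 618 CPM in CON and 397 to 505 CPM in LPS, and cholangiocyte or stellate cell markers to 741 to 1091 and 534 to 1184 CPM. Red blood cell or platelet markers, of which 2 of 7 were tested, summed to 69.7 to 95.3 CPM in CON and to 223, 87.5 and 319 CPM in LPS. No marker with a row was at 0 in all 6 libraries. The part of these cell types in the levels of the peroxisomal genes was not tested.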

How the data were processed

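For the input libraries of the CON and LPS groups, the authors deposited 1 table of raw counts by gene, in whole numbers without normalization, with gene coordinates and length. Per the labels, RNA was polyadenylated and libraries were made with a directional kit. The submitters' processing notes name cutadapt 1.9.3, HISAT2 and the builds galGal6 and hg38, neither of which is a pig genome. No source used here gives the pig build, the counting program or its strand setting. Of 13830 genes with a symbol in RefSeq's table of Sscrofa11.1, 13674 (98.9%) overlapped it in position. Columns were matched to libraries by the group and replicate number in their names, and 0 were left unmapped. CON replicates 1 and 2 have 2 sequencing entries each and 1 column each.

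Total counts were 10311658, 5927348 and 10351491 in CON replicates 1 to 3 and 4348478, 5502438 and 19967417 in LPS replicates 1 to 3, so counting error differs between libraries. The groups were compared in edgeR 4.0.16 under R 4.3.3 (filterByExpr with a minimum count of 10, TMM, glmQLFit with robust settings, glmQLFTest, no covariate). The standard error (SE) of a log2 fold change was derived from its size and the F statistic (size over root F). An exact permutation test of 3 against 3 cannot go below p = 0.1 and was not used. The script was tested on simulated data.

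The 39 genes, the related lists and the markers were written from general knowledge and chosen with earlier results of these data known. Values per library and the test are given for genes of the list with an unadjusted p below 0.05, without overlap between groups or among the 5 highest in CON per length. Genes of other lists are named, up to 5 in each direction, by the smallest unadjusted p below 0.05, and PPARA always. Values per library or ranges of other genes of the list, and the markers ALB, ASGR2, SERPINA1 and ELANE, were added after they were seen. DESeq2 1.42.0, limma-voom (limma 3.58.1), RLE factors, library totals, other filters and fold thresholds, a replicate block and each library left out were the alternatives, and DESeq2 without LPS replicate 2 was chosen after seeing the data. Immunoprecipitated libraries, promoter sequences and protein sequences were not analysed here. The values of some single genes outside the 39-gene list are left out of the text.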

Additional observations from a re-analysis of the deposited data

How the results depend on the processing

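The calls depended on the tool, the filter and single libraries. Against 0 peroxisomal genes called lower and 0 higher of 32, the counts were 6 and 1 with no filter on low counts, 3 and 1 with DESeq2, 0 to 8 and 0 to 1 with each library left out, and 10 and 1 with DESeq2 without LPS replicate 2. They were 0 and 0 with RLE factors, library totals, at least 10 counts in every library (30 genes tested), limma-voom, the replicate block and both other fold thresholds. Those settings called 0% to 0.0705% of all tested genes lower and 0% to 0.329% higher. At an unadjusted p below 0.05, leaving out each library gave 5 to 13 lower and 1 to 3 higher genes. The extremes were 5 lower without LPS replicate 1, 13 lower without LPS replicate 2 and 3 higher without LPS replicate 3. DESeq2 without LPS replicate 2 gave 13 lower. The shares of all tested genes at this p in these fits are not given here, so these counts have no background beside them. Of the other peroxisomal genes, 6 were called lower with no filter, 3 with DESeq2 and 0 to 7 with each library left out. DESeq2 without LPS replicate 2 called 16 of them lower and 1 higher, and 0 to 1 were called higher with each library left out. Over all tested genes, the shares called lower were 1.48% with no filter, 0.951% with DESeq2 and 0% to 3.45% with each library left out. The shares called higher were 2.28%, 1.85% and 0% to 3.76% in the same order. DESeq2 without LPS replicate 2 called 5.3% of all genes lower and 5.57% higher. Why the calls depended on the setting was not tested.

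The median log2 fold change of the 32 genes stayed between -0.65 and -0.34. Scaling to library totals moved the median of all genes from 0.01 to -0.12, and the 32 genes lay 0.36 below that median, beside 0.43 with TMM. Over 696 values of single named genes under an alternative, 615 kept their sign and side of the threshold, 70 passed it and 11 reversed. GNPAT was -0.006 and PEX7 -0.14 with library totals, and PEX5 was 0.016 with RLE factors and 0.011 with DESeq2. With each library left out, CRAT ranged from -0.92 to 0.064, GNPAT from -0.18 to 0.45, PEX11A from -0.75 to 0.36, PEX5 from -0.19 to 0.26 and PEX7 from -0.33 to 0.29.

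Deviations from the group means of libraries with the same replicate number correlated at -0.24, 0.22 and 0.03 for numbers 1, 2 and 3, so the numbers did not pair the libraries. With the replicate block 0 of the 32 genes were called, their median was -0.57, and 1 other peroxisomal gene was called lower. Over all tested genes, that fit called 0.0705% lower and 0.329% higher.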
